A study of Mus musculus with 63 samples.

Results

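Notch ligands, receptors and targets, 10 genes in all, were followed through every count table of a study of the Mediator kinases CDK8 and CDK19 in the mouse small intestine. They were selected by name from 54752 genes in each table, and comprise the receptors Notch1 and Notch2, the ligands Dll1, Dll4, Jag1 and Jag2, the targets Hes1, Hey1 and Nrarp, and the modifier Lfng. Of these, 9 passed the filter on low counts in every comparison. Hey1, a transcriptional repressor of the Hes family, had 0 to 6 counts in each library and was tested in none.

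Libraries of poly-A RNA were analysed from 19 groups of 3, all on the C57BL/6 strain. The 5 organoid lines were collected 7 days after 100 nM 4-hydroxytamoxifen (4-OHT), the drug that activates CreERT2: VillinCreERT2 and C57BL/6 as controls, CDK8iIEC-KO (VillinCreERT2 with Cdk8 fl/fl), Cdk8fl/fl/Cdk19-/- without Cre, and CDK8iIEC-KO/Cdk19-/- with both. Another 8 groups formed a time course of the line VillinCreERT2/Cdk8fl/fl/Cdk19-/-, given 4-OHT or 0.001% EtOH for 24 h and collected at 3, 5, 7 or 10 days, so Cdk19 was lacking in its EtOH controls too. The same genotype was cultured in Wnt3-conditioned medium (Wnt3-CM), exposed to EtOH or 4-OHT for 24 h and collected at day 10. Organoids of the line VillinCreERT2/Cdk8fl/fl/Cdk19D173A/-, with 1 kinase-dead and 1 deleted Cdk19 allele, had the same 24 h exposure and were collected at day 7. Their EtOH controls thus lacked wild-type Cdk19 as well. Intestinal epithelial cells (IECs) came from VillinCreERT2 and CDK8iIEC-KO/Cdk19-/- mice, 14 days after the last of 5 daily tamoxifen injections of 80 mg/kg. The Villin promoter directs Cre to the intestinal epithelium. Organoid replicates are triplicate cultures, so their p-values measure the spread between cultures and not between mice or lines. No group received 4-OHT without Cdk8 fl/fl in the time course, in Wnt3-CM or in the Cdk19D173A line. There 4-OHT and loss of Cdk8 cannot be told apart. The labels do not tie the Wnt3-CM and Cdk19D173A columns to single samples, and these were assigned to their groups by column name and by elimination.

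Totals ran from 15485959 to 32909565 counts per library. Whole-gene counts of Cdk8 and Cdk19 stayed high in the groups labelled as deleted. Cdk8 was at 66.3 ± 1.08 CPM (counts scaled to library size, SD, n = 3) in CDK8iIEC-KO/Cdk19-/- organoids and 75.6 ± 4.62 in VillinCreERT2, but at 80.6 ± 2.59 in CDK8iIEC-KO. Cdk19 was at 25.6 ± 0.768 in Cdk8fl/fl/Cdk19-/- against 31.0 ± 3.10 in C57BL/6, and at 27.7 ± 0.101 in CDK8iIEC-KO/Cdk19-/- against 28.1 ± 0.946 in VillinCreERT2. Such counts add reads over all exons and do not check a deletion of part of a gene. Epithelial markers (Epcam, Vil1, Krt8, Cdh1 and Cdx2) were abundant in every group, while summed markers of mesenchyme and immune cells were under 2 CPM in organoids except for single libraries of EtOH at day 7 (38.7 CPM of mesenchyme markers) and of the Cdk19D173A line with 4-OHT (5.35 CPM).

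Notch signalling passes between touching cells. A ligand of the Delta or Jagged family on one cell opens a Notch receptor on its neighbour, whose intracellular part enters the nucleus, binds RBPJ and switches on targets such as Hes1. In the crypt, HES1 represses Atoh1, the master regulator of the secretory fate, and a progenitor with little Notch activity keeps Atoh1 on, displays Delta ligands to its neighbours and takes up a secretory fate, such as that of Paneth or goblet cells. This exchange is called lateral inhibition. LFNG, a glycosyltransferase of the Golgi, adds sugars to Notch receptors and changes their response to ligands, and NRARP is a target that feeds back on the receptor's intracellular part.

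Dll4 (chr2:119325784-119335962) and Lfng (chr5:140607320-140615545), both on the plus strand of GRCm38, were the members most often called lower, in 6 each of the 9 comparisons that share no library, so the sequences before their start sites are shown. They are from RefSeq on GRCm38.p6, forward strand, and capitals mark the core of the RBPJ motif, TGGGAA or its complement TTCCCA.
Dll4, chr2:119325534-119325783: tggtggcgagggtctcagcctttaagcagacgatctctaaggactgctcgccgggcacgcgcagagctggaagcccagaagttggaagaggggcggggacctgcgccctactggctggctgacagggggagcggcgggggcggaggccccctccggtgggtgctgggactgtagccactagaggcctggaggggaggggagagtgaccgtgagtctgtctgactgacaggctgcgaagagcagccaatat
Lfng, chr5:140607091-140607319: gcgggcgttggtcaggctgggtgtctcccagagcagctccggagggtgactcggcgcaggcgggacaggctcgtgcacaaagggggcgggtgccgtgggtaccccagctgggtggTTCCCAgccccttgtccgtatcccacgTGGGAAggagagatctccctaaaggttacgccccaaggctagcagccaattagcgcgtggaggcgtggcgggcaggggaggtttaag
Lfng held 2 RBPJ cores within 250 bases of its start, which 2.77% of 32851 promoters did, and 21.6% held at least 1. No other of the 8 members with a promoter entry held one. E boxes (CANNTG, a palindrome), the motif of proteins such as ATOH1, numbered 2 in Lfng, the second sharing bases with an RBPJ core, 1 in Nrarp and 1 in Jag1, and were absent from this window in Dll4, Jag2, Notch1 and Notch2. Both Dll1 entries held them, with 1 and 3. An E box occurred in 66.2% of all promoters. These letter matches describe the windows and show no binding.

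Per kilobase of exon, Hes1 had the highest level of the members in all 19 groups, from 16.5 to 69.9 CPM per kb, and Hey1 the lowest. In EtOH organoids at day 10 the order was Hes1 (45.0 ± 1.22 CPM per kb, SD), Lfng (10.7 ± 0.882), Dll1 (8.11 ± 0.981), Nrarp (6.09 ± 0.503), Jag2 (5.49 ± 0.436), Notch1 (3.62 ± 0.425), Dll4 (2.19 ± 0.185), Jag1 (1.86 ± 0.244) and Notch2 (1.59 ± 0.0304). Nrarp and Jag2, Dll4 and Jag1, and Jag1 and Notch2 were closer to each other than the sum of their SDs. VillinCreERT2 IECs ranked Dll4 after Hes1 and Dll1, at 5.66 ± 0.571 CPM per kb, and Jag2 lowest of those tested, at 0.353 ± 0.0359.

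Below, genes past both an adjusted p of 0.05 over all genes (edgeR, quasi-likelihood) and a fold change of 1.5 are called, and fold changes are on the log2 scale with their SE. Of the comparisons, 9 share no library: Cdk8fl/fl/Cdk19-/- against C57BL/6, CDK8iIEC-KO/Cdk19-/- against VillinCreERT2 in organoids and in IECs, the 4 days of the time course, Wnt3-CM and the Cdk19D173A line. Over these, Dll4 was lower in 9 and called in 6, and Lfng was lower in 8 and called in 6. Jag2 was called lower in 4, Notch1 in 3 and Notch2 in 2, with Notch2 called higher in 1. Of the Lfng and Jag2 calls, 1 each was against C57BL/6, in which both genes were higher than in VillinCreERT2. Hes1 was higher in 7 and called higher in 2, and never called lower, its lowest value being -0.30 in Cdk8fl/fl/Cdk19-/-. Nrarp was called once in each direction, and Dll1 and Jag1 once each, both lower. These comparisons are not independent: by column name the time course and Wnt3-CM share an organoid line, and the 4 days share a fit. From that line came the Dll4 calls at days 5, 7 and 10 and in Wnt3-CM. Its Lfng calls were at days 5, 7 and 10.

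**Figure D1:**
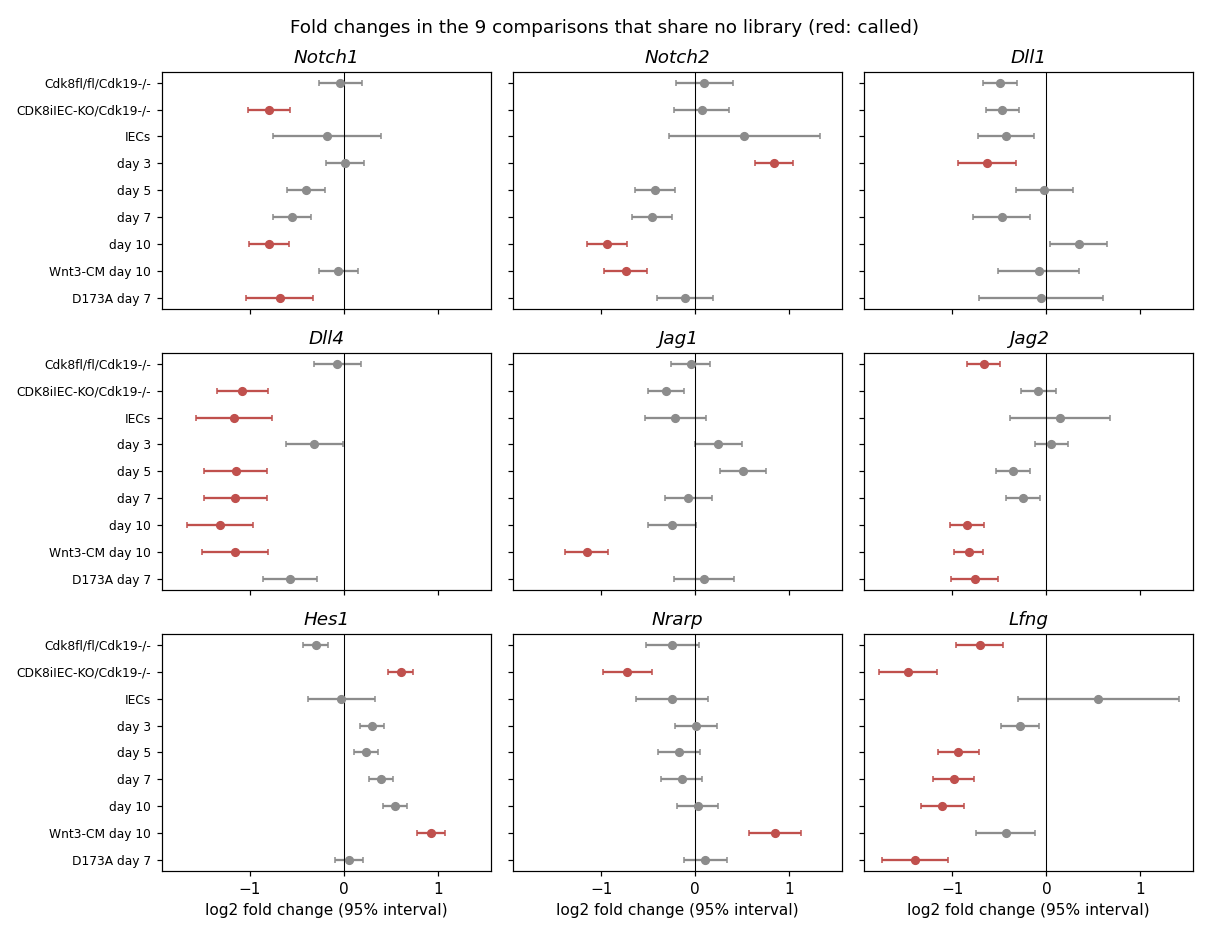
Log2 fold change (x axis, 95% interval) of 9 members in the 9 comparisons that share no library (y axis), against C57BL/6 or VillinCreERT2 controls for the organoid lines and IECs and 4-OHT against EtOH elsewhere; red points were called. Dll4 lies left of 0 in all 9, from -1.32 to -0.07, and Hes1 right of 0 in 7.

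Loss of both kinases was compared with VillinCreERT2 in the organoid lines. CDK8iIEC-KO/Cdk19-/- organoids had less Dll4 and Lfng, less Notch1 and Nrarp, and more Hes1: 5 of 9 members were called, against 19.4% of all genes. Dll4, a Delta ligand of secretory cells, read 3.59, 3.44 and 3.43 CPM in the 3 knockout libraries and 6.93, 7.53 and 7.70 in VillinCreERT2. The groups did not overlap, and the fold change was -1.08 ± 0.13 (adjusted p = 1.8e-07, edgeR). Lfng read 3.70, 3.16 and 2.71 CPM against 8.40, 9.16 and 9.05. All knockout libraries lay below the lowest control, at -1.47 ± 0.15 (adjusted p = 8.26e-09). In such bulk libraries, fewer cells of a type and less RNA per cell cannot be told apart. Hes1 read 115, 112 and 109 CPM against 75.7, 67.1 and 77.8. It was higher in each knockout library, by 0.60 ± 0.06 (adjusted p = 1.68e-08), just past the 1.5-fold limit, and the call was lost without VillinCreERT2 replicate 2 (0.54) or knockout replicate 1 (0.58). Nrarp, the other tested target, moved the opposite way, with 8.22, 5.93 and 6.15 CPM against 10.9, 10.4 and 12.3 (-0.72 ± 0.13, adjusted p = 2.92e-05). Notch1 was at 17.6 against 30.7 CPM on average (-0.80 ± 0.11, adjusted p = 1.46e-06). Dll1 (-0.47, adjusted p = 4.94e-05) and Jag1 (-0.31, adjusted p = 0.00707) were lower by less than 1.5-fold. Cell type markers moved in the same libraries: all 6 Paneth markers (median -1.99), 5 of 6 tuft (-2.23), 5 of 6 stem (-0.88) and 4 of 6 enteroendocrine markers (-0.60) were called lower, as were 2 of 6 goblet markers (-0.52), with 1 enterocyte marker in each direction. Their part in the member values was not tested.

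The control line mattered for 3 of these calls. C57BL/6 and VillinCreERT2 organoids, both with intact Cdk8 and Cdk19, differed in 26.4% of genes, and 2 of 9 members were called: Jag2 (0.93 ± 0.08) and Lfng (0.77 ± 0.12) were higher in C57BL/6. Hes1 was also higher there (0.51 ± 0.06, adjusted p = 1.6e-07) and Notch1, Nrarp and Jag1 were lower (-0.54 ± 0.11, -0.51 ± 0.12 and -0.43 ± 0.10), all below the fold limit. Against C57BL/6 in place of VillinCreERT2, Dll4 and Lfng stayed called, Jag2 became called (-1.02), and the values of Hes1 (0.09), Notch1 (-0.26) and Nrarp (-0.21) lost their calls. Cell type markers differed between these lines too: of 6 each, 4 Paneth (median 0.94), 4 enteroendocrine (0.74), 3 tuft (0.62) and 2 stem markers were called higher in C57BL/6, and 3 goblet (-0.54), 2 enteroendocrine and 1 enterocyte marker lower. Their part in the member differences was not tested. Cre, line and culture cannot be told apart between these controls.

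Each kinase alone gave fewer calls. In CDK8iIEC-KO organoids 0 of 9 members were called, against 7.23% of all genes, by edgeR, DESeq2 and limma-voom alike. By unadjusted p, 5 members were under 0.05, as were 6065 of 15125 genes. Jag2 (0.46 ± 0.08, adjusted p = 0.000184) and Hes1 (0.35 ± 0.06, adjusted p = 0.000152) kept an adjusted p under 0.05 with folds under 1.5. Of all genes, 30.3% had an adjusted p under 0.05. In these libraries 5 of 6 enterocyte markers (median -0.83) and 3 of 6 goblet markers (-0.52) were called lower, and 1 Paneth and 1 stem marker higher. In Cdk8fl/fl/Cdk19-/- against C57BL/6, where 5.25% of genes were called, Jag2 (17.3, 16.9 and 17.3 CPM against 27.7, 27.3 and 26.8) and Lfng (8.34, 10.3 and 9.17 against 13.0, 16.0 and 16.4) were called lower. Neither gene overlapped between the groups. Neither mean lay below that of VillinCreERT2, a comparison not tested here: Lfng averaged 9.27 CPM in Cdk8fl/fl/Cdk19-/- and 8.87 in VillinCreERT2, and Jag2 17.2 and 14.3. Below the fold limit, Dll1 (-0.50 ± 0.09, adjusted p = 0.000202) and Hes1 (-0.30 ± 0.06, adjusted p = 0.00154) were also lower than in C57BL/6, with no overlap, so that Hes1 had opposite signs in the single-kinase lines, each against its own control. Of the markers, 2 of 6 stem and 1 of 6 Paneth markers were called lower there. Dll4 did not pass in either, at -0.10 ± 0.12 and -0.07 ± 0.12. Setting CDK8iIEC-KO/Cdk19-/- against Cdk8fl/fl/Cdk19-/-, with 10.6% of genes called, again called Dll4 (-1.07 ± 0.14) and Lfng (-1.54 ± 0.15) and no other member. Hes1 (0.39, adjusted p = 2.5e-05) and Jag2 (-0.35, adjusted p = 0.00344) stayed under the fold limit. Beside them, all 6 Paneth markers (median -2.36), 5 tuft (-2.73), 4 enteroendocrine (-0.96) and 3 stem markers (-0.63) were called lower, and 2 enterocyte markers higher and 1 lower. The part of cell composition in the values of these 3 comparisons was not tested. These comparisons share groups with those above.

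**Figure D2:**
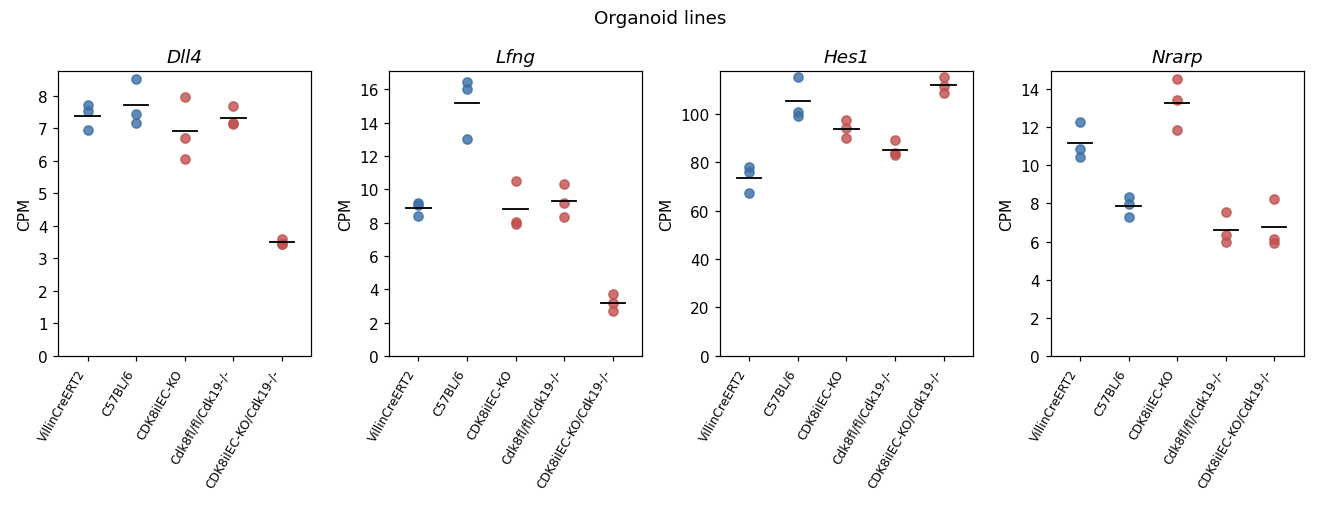
CPM (y axis) of Dll4, Lfng, Hes1 and Nrarp in each library of the 5 organoid lines (x axis), controls in blue, lines with a Cdk8 or Cdk19 allele targeted in red, bars at the mean. The 3 CDK8iIEC-KO/Cdk19-/- libraries lie at 3.43 to 3.59 for Dll4 and 2.71 to 3.70 for Lfng, below all others.

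The time course asked when the members changed after 4-OHT. At day 3 Dll4 and Lfng were not called. Notch2 was higher and Dll1 lower, 2 of 9 members against 12.4% of genes. All 6 enterocyte markers were called lower at this time, with sums of 2530 to 2934 CPM against 9156 to 10421, while at day 10 1 was higher and none lower (16193 to 21566 against 12542 to 16457), and their part in the Notch2 and Dll1 values was not tested. Notch2 read 27.0, 23.9 and 24.6 CPM with 4-OHT and 12.3, 15.4 and 14.6 with EtOH (0.84 ± 0.10, adjusted p = 6.74e-08). Dll1 read 31.2, 29.2 and 31.3 CPM against 48.2, 45.9 and 48.0 (-0.63 ± 0.15, adjusted p = 0.00185). Neither gene overlapped between the groups. Dll4 read 9.71, 8.63 and 8.27 CPM against 11.8, 10.4 and 10.9, and did not pass the test (-0.31 ± 0.15, adjusted p = 0.105). Lfng was already lower without overlap, at 34.0 against 41.3 CPM on average, but under the fold limit (-0.28 ± 0.10, adjusted p = 0.0272).

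From day 5 on, Dll4 and Lfng were called lower at each time. Dll4 read 3.90, 5.15 and 3.91 CPM with 4-OHT at day 5 and 9.21, 7.29 and 12.3 with EtOH (-1.15 ± 0.16), and it was at -1.16 ± 0.16 on day 7 and -1.32 ± 0.17 on day 10. Lfng followed, at -0.94 ± 0.11, -0.99 ± 0.11 and -1.11 ± 0.11. They were the 2 members called of 9 at day 5, against 13.2% of genes, and at day 7, against 18.3%. At day 10, 5 of 9 were called, against 15.8%. Besides these, Notch1 read 32.4, 27.2 and 29.6 CPM against 58.5, 49.1 and 47.1 (-0.80 ± 0.10, adjusted p = 3.2e-07), Notch2 9.22, 8.81 and 8.72 against 16.8, 17.3 and 17.4 (-0.94 ± 0.10, adjusted p = 1.78e-08) and Jag2 20.2, 21.1 and 22.5 against 34.7, 40.0 and 40.0 (-0.85 ± 0.09, adjusted p = 7.26e-09). All 5 called members of day 10 were lower. Below the fold limit, Notch1, Notch2 and Jag2 were already lower at days 5 and 7. Notch1 was at -0.40 and -0.55, Notch2 at -0.43 and -0.46 and Jag2 at -0.35 and -0.25. Each had an adjusted p of 0.0225 or less, without overlap.

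Hes1 stayed above its EtOH controls throughout. Its fold changes of 0.30 ± 0.06, 0.23 ± 0.06, 0.39 ± 0.06 and 0.54 ± 0.06 at days 3, 5, 7 and 10 all had adjusted p-values under the threshold, the largest 0.00382, and none reached 1.5-fold. At day 10 it read 138, 134 and 129 CPM against 94.5, 90.1 and 90.3, without overlap. Nrarp lay between -0.17 and 0.03 at the 4 times and passed the test at none. Jag1, a Jagged ligand, was higher at day 5 (0.51 ± 0.12, adjusted p = 0.00137) without reaching the fold limit and passed at no other time.

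**Figure D3:**
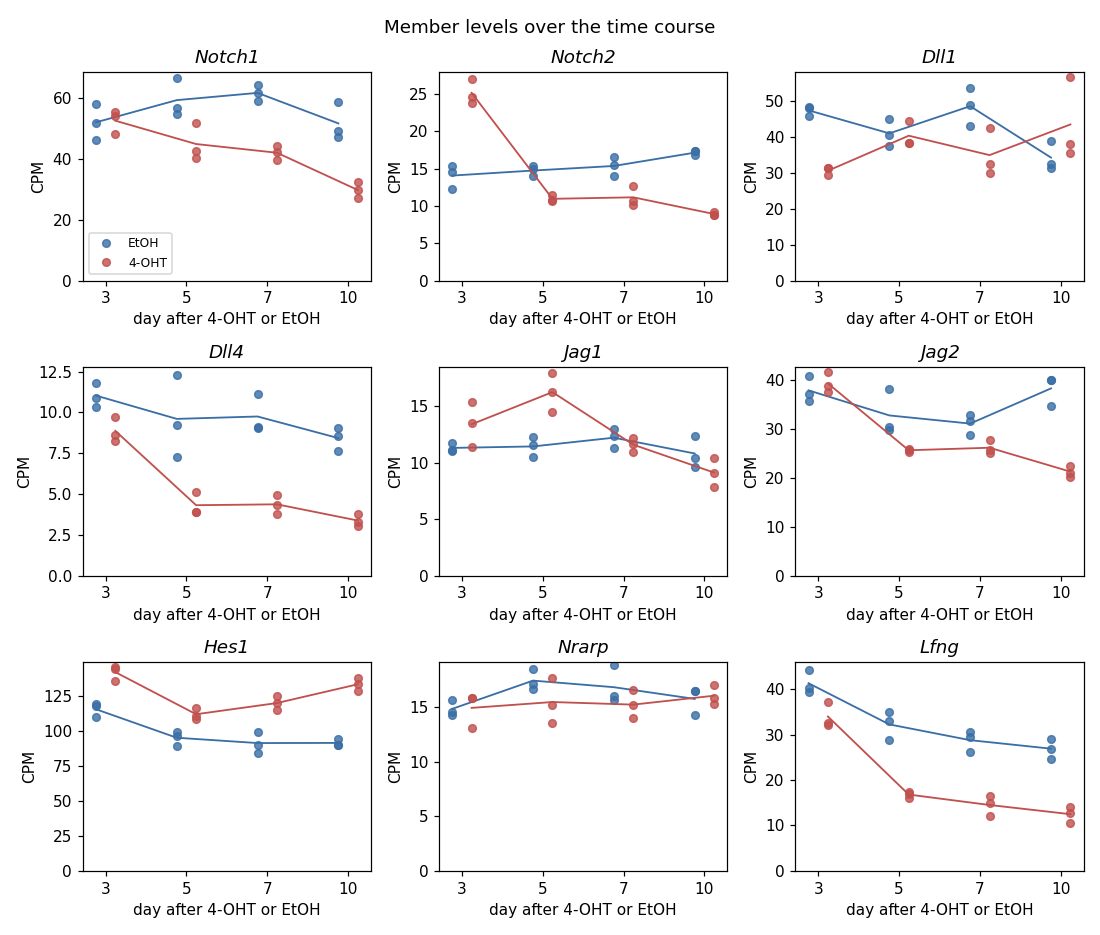
CPM (y axis) of 9 members in each library of the time course at days 3, 5, 7 and 10 (x axis, evenly spaced), with EtOH in blue and 4-OHT in red and lines through the means. Notch2 with 4-OHT lies above EtOH at day 3 (25.2 against 14.1 on average) and below it at day 10 (8.92 against 17.1).

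The response to 4-OHT at day 10 was tested against that at day 3 in the same fit. It differed for 6 of 9 members, against 26.3% of genes: Notch2 by -1.78 ± 0.14 (adjusted p = 3.3e-11), Dll4 by -1.00 ± 0.23, Jag2 by -0.90 ± 0.12, Lfng by -0.82 ± 0.15 and Notch1 by -0.81 ± 0.14, and Dll1 by 0.98 ± 0.21 (adjusted p = 0.000578). Dll1 was called lower with 4-OHT on day 3 and was at -0.02 ± 0.15 on day 5 (adjusted p = 0.921), at -0.48 ± 0.15 on day 7 (adjusted p = 0.0106, under the fold limit) and at 0.34 ± 0.15 on day 10 (adjusted p = 0.0627). Between the responses all 6 Paneth (median -2.17), 5 of 6 stem (-1.52) and 3 of 5 tuft markers (-1.41) were called lower. Called higher were all 6 enterocyte (1.72) and 1 of 5 epithelial markers, with 1 of 6 goblet markers in each direction. Their part in the member differences was not tested. From day 3 to day 10 in EtOH, 38.4% of genes were called, but 1 of 9 members: Lfng fell by 0.62 on the log2 scale (SE 0.10), a call lost without EtOH day 10 replicate 1 (-0.56).

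Regulators of the secretory fate and cell type markers were read in the same libraries. Of 8 fate regulators, 1 was called at day 3 (Foxa2, higher), 3 lower at day 5, 5 at day 7 and 7 at day 10, and 6 in CDK8iIEC-KO/Cdk19-/- against VillinCreERT2. Atoh1 was at 35.1 against 32.7 CPM at day 3 and at 8.44 against 18.9 at day 10 (-1.16 ± 0.08, adjusted p = 4.71e-12). All 6 Paneth markers were called lower at days 5, 7 and 10 and none at day 3, when 1 was higher, and their summed level was 2082 to 2470 CPM with 4-OHT at day 10 against 7988 to 8169 with EtOH. Of the other secretory types, 3 of 5 tuft markers tested were called lower at day 3 and 4 at each later day, against 1 of 6 goblet markers at each of the 4 days and 0 of 2 enteroendocrine markers. Of 6 stem cell markers, 2 were called higher at day 3, and 4 were called lower at days 5, 7 and 10 (medians -0.64, -1.06 and -1.06). The part of cell composition in the Dll4, Lfng and Notch1 values was not tested.

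In Wnt3-CM the ligands and targets parted most. With 4-OHT, 3 of 4 ligands were called lower and both tested targets called higher, and 6 of 9 members in all were called against 16.9% of genes. Dll4 read 3.38, 3.11 and 2.85 CPM against 5.47, 7.92 and 7.43 (-1.15 ± 0.17, adjusted p = 8.57e-06). Jag1 read 11.6, 9.04 and 9.05 CPM against 23.1, 21.9 and 21.1 (-1.16 ± 0.11, adjusted p = 1.45e-08), and Jag2 was lower too (30.8 against 54.7 CPM, -0.83 ± 0.07). Hes1 read 89.1, 80.8 and 79.1 CPM against 44.2, 42.0 and 44.6 (0.93 ± 0.07, adjusted p = 6.46e-10). Nrarp rose with it, from 5.68, 6.61 and 7.06 CPM to 11.3, 13.4 and 10.3 (0.85 ± 0.13, adjusted p = 1.78e-05). None of these groups overlapped. Notch2 was lower (-0.74 ± 0.11), and Lfng was at -0.44 ± 0.15, under the fold limit.

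Set against the day 10 response in standard medium in a joint fit, 4 of 9 members differed, with 13.3% of genes called. The response in Wnt3-CM was more negative for Jag1 (-0.91 ± 0.18, adjusted p = 0.000642) and more positive for Nrarp (0.82 ± 0.16, adjusted p = 0.000641), Notch1 (0.73 ± 0.15, adjusted p = 0.000965) and Lfng (0.67 ± 0.20, adjusted p = 0.0169). The Lfng call was lost without Wnt3-CM EtOH replicate 1 (0.53), Wnt3-CM 4-OHT replicate 2 (0.59) or standard-medium 4-OHT replicate 1 (0.57). For Dll4 the difference was 0.16, with a 95% interval from -0.30 to 0.62. Hes1 differed by 0.38 ± 0.09 (adjusted p = 0.0025), under the fold limit. The media lie in separate count tables, so medium and table cannot be told apart for the levels, while each response was taken within its table. Within Wnt3-CM all 6 Paneth markers (median -1.87) and all 6 tuft markers (-3.32) were called lower. Also lower were 3 of 6 goblet, 1 of 6 stem and 1 of 5 epithelial markers (-0.27), and 2 of 6 enterocyte markers were called higher. Between the responses 4 of 6 stem markers were called higher in Wnt3-CM (median 0.79), as were 2 of 6 enterocyte markers. The median of the enterocyte list was -0.36, the opposite way. Called lower were 1 of 6 tuft markers (-1.10) and 2 of 5 epithelial markers (-0.39), and 0 of 6 Paneth markers differed. The part of these cells in the member differences was not tested.

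**Figure D4:**
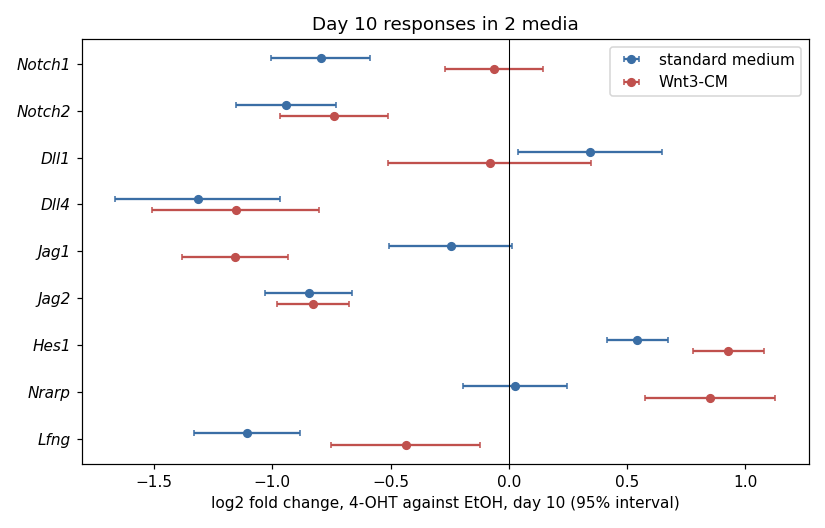
Log2 fold change with 95% interval (x axis) of 4-OHT against EtOH at day 10 for 9 members (y axis), in standard medium (blue) and Wnt3-CM (red). Nrarp lies at 0.03 and 0.85, Jag1 at -0.25 and -1.16, and Dll4 at -1.32 and -1.15.

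The Cdk19D173A line asked whether a kinase-dead Cdk19 allele gives the response of a missing one. At day 7, 3 of 9 members were called lower, against 12.3% of genes. Lfng read 3.49, 2.80 and 4.03 CPM against 8.25, 9.52 and 9.32 (-1.40 ± 0.16, adjusted p = 0.000152). Jag2 read 13.7, 18.5 and 17.7 against 26.6, 29.0 and 28.9 (-0.76 ± 0.11, adjusted p = 0.000807), and Notch1 32.2, 24.1 and 20.7 against 45.9, 37.5 and 40.3 (-0.68 ± 0.16, adjusted p = 0.0122). In all 3 genes the 4-OHT libraries lay below the EtOH libraries. The Notch1 call was lost without 4-OHT replicate 2 or 3. Dll4 was lower without overlap (-0.57 ± 0.13, adjusted p = 0.00783) but by less than 1.5-fold, and became called with upper quartile scaling (-0.62) or without EtOH replicate 1 (-0.66) or 4-OHT replicate 3 (-0.66). Hes1 was at 0.05 ± 0.07. Of 6 markers each, 5 Paneth, 5 tuft, 4 stem, 3 enteroendocrine and 1 goblet marker were called lower in the same libraries (medians -1.75, -2.08, -1.04, -0.11 and -0.37). Called higher were 3 enterocyte markers (0.55), 2 goblet markers and the remaining Paneth marker and 1 enteroendocrine marker, and their part in these values was not tested.

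This response was set against the day 7 response to 4-OHT of the time course line, VillinCreERT2/Cdk8fl/fl/Cdk19-/- (below, the Cdk19-/- line). Past both limits, 0 of 9 members differed by edgeR, DESeq2 or limma-voom, with 11.1% of genes called. Without the fold limit, 4 members were under an unadjusted p of 0.05, as were 5189 of 15636 genes. By adjusted p 2 were, Jag2 (-0.52 ± 0.15, adjusted p = 0.0203) and Hes1 (-0.34 ± 0.10, adjusted p = 0.0248), as were 20.1% of genes. Dll4 differed by 0.58, with a 95% interval from 0.15 to 1.01 and an adjusted p of 0.0543. Without 1 4-OHT library of the Cdk19D173A line (replicate 2) 2 members were called, and without 1 of the Cdk19-/- line (replicate 1) 1 was. These are separate lines in separate count tables, so allele, line and experiment cannot be told apart. For Atoh1 the difference was called (0.70 ± 0.15, adjusted p = 0.00384). Of the markers, 3 of 6 enterocyte and 2 of 6 goblet markers were called higher in this difference, 2 of 6 Paneth markers in each direction and 0 of 6 tuft markers. Of 6 enteroendocrine markers 2 were called lower and 1 higher (median -1.57), and of 6 stem markers 1 in each direction (0.31). Their part in the member differences was not tested.

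In IECs only Dll4 was called, 1 of 9 members against 1.5% of genes. It read 7.92, 11.9 and 9.18 CPM in CDK8iIEC-KO/Cdk19-/- mice and 20.9, 20.2 and 24.3 in VillinCreERT2, without overlap (-1.17 ± 0.17, adjusted p = 0.0361). The call was lost without replicate 1 or 3 of either group and with a replicate block (adjusted p = 0.094), with adjusted p-values of 0.0733 to 0.167 and fold changes of -1.20 to -1.05 without those libraries. Hes1 was at 33.2, 39.3 and 28.6 CPM against 29.7, 34.7 and 38.6, overlapping (-0.03 ± 0.15). Lfng, lower in organoids, was at 18.8, 14.6 and 8.74 against 6.91, 13.8 and 8.08 (0.55 ± 0.36, adjusted p = 0.424).

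**Figure D5:**
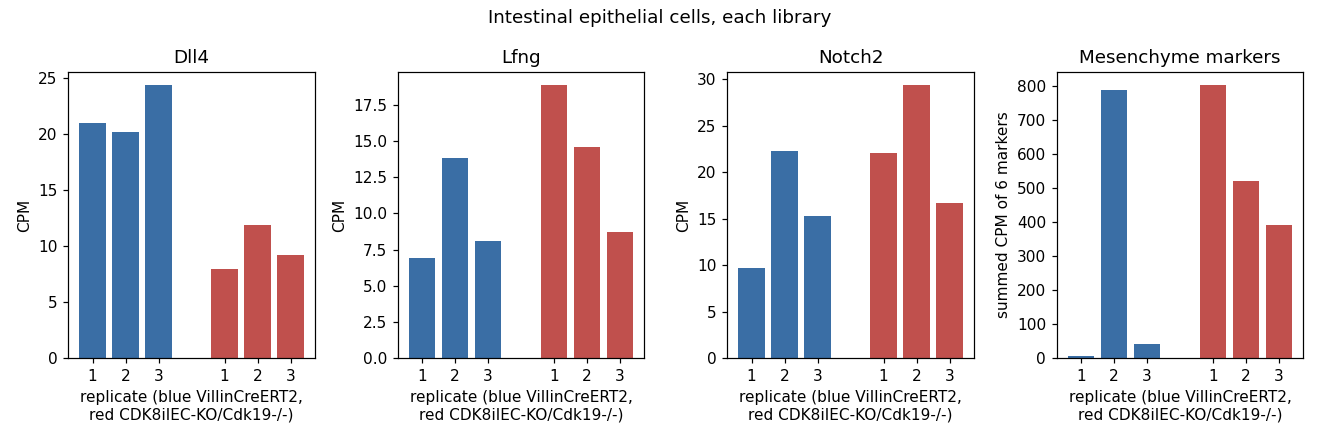
CPM (y axis) of Dll4, Lfng and Notch2 and the summed CPM of 6 mesenchyme markers in each IEC library (x axis), VillinCreERT2 in blue and CDK8iIEC-KO/Cdk19-/- in red. Mesenchyme markers reach 790 CPM in 1 control and 393 to 802 in the knockouts, and Dll4 is lower in all 3 knockouts.

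Non-epithelial RNA differed between the IEC libraries. Summed mesenchyme markers (Col1a1, Col1a2, Col3a1, Pdgfra, Dcn and Acta2) were at 5.93, 790 and 40.2 CPM in the VillinCreERT2 libraries and at 802, 522 and 393 in the knockouts. Endothelial markers were at 1.37 to 4.57 and 7.41 to 13.7 CPM, and immune markers at 1635 to 2915 and 1657 to 2670. Lfng and Notch2 were highest among the controls in the library with 790 CPM of mesenchyme markers, at 13.8 and 22.3 CPM. Dll4 was 20.2 CPM in that library. Of the epithelial types, 3 of 6 Paneth markers were called lower in the knockouts (sums of 904 to 1989 CPM against 3631 to 5944), and 2 of 6 each of goblet, tuft and stem markers. The part of any of these cells in the Dll4, Lfng and Notch2 values was not tested.

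The median fold change of the 4 ligands was set beside that of Hes1, Nrarp and Lfng, as a description. It was -0.55 against 0.03 at day 10 of the time course, -0.99 against 0.85 in Wnt3-CM, -0.32 against 0.05 in the Cdk19D173A line and -0.32 against -0.03 in IECs. Smaller gaps of the same direction were found at day 3 (-0.13 against 0.01) and day 7 (-0.36 against -0.14), and CDK8iIEC-KO was at -0.09 against 0.25. The medians were close at day 5 (-0.19 against -0.17) and in Cdk8fl/fl/Cdk19-/- (-0.29 against -0.30). In CDK8iIEC-KO/Cdk19-/- organoids the ligands were above the other genes against VillinCreERT2, at -0.39 against -0.72, where Lfng was at -1.47 and Hes1 at 0.60, and below them against Cdk8fl/fl/Cdk19-/-, at -0.09 against 0.03. A gap nearly as wide as at day 10 stood between the control lines, both with intact kinases: in C57BL/6 against VillinCreERT2 the ligands were at -0.05 against 0.51. From day 3 to day 10 in EtOH the medians were -0.23 against -0.34. The median over all genes tested lay between -0.02 and 0.02 in each of these.

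Other genes of the pathway were counted in the same way. Of 43 further genes (receptors, glycosyltransferases, ligases, secretases, co-activators and Hes genes), 36 were tested in the time course. At day 3, 3 were called higher and 1 lower, against 12.4% of all genes, with Notch3 at 1.51 and Notch4 at 0.86. At day 10, 8 were called lower and 0 higher, against 15.8% of all genes, led by Mfng (-2.84), a paralog of Lfng, Neurl1a (-1.99), Numbl (-1.95) and Hes5 (-1.77), another Notch target. In CDK8iIEC-KO/Cdk19-/- against VillinCreERT2, 1 of 32 was higher and 4 lower, against 19.4% of all genes, among them Rfng (-0.74), the remaining Fringe gene. In Wnt3-CM 2 of 32 were higher and 4 lower, against 16.9% of all genes, with Maml2, a co-activator, at -2.25 and Hes2 at 1.15. The Cdk19D173A line had 1 higher and 1 lower of 34, against 12.3% of all genes, and IECs 1 higher of 38 (Dlk1, 3.12), against 1.5%.

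Over the 24 libraries of the time course, the genes most like Dll1 by Pearson r of log2 CPM were Ccdc134 (0.80), Ppp1r12b (0.78), Rexo4 (0.77), Fam53b (0.76) and Ppp5c (0.75), and those most like Hes1 were Gkn3 (0.89), Sdr16c5 (0.89), Slfn2 (0.88), Ccng1 (0.86) and Psmb9 (0.85). The libraries share treatments and days, so these are descriptions. No other member was near the top of either list: the highest for Dll1 was Nrarp (r = 0.21, rank 2879 of 15446), and Dll1 with Hes1 gave r = -0.30.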

How the data were processed

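RNA-Seq of organoids and IECs was taken as raw counts of reads per gene, deposited by the authors without normalization. Per the submitters' processing notes, STAR 2.5.2, featureCounts, Subread 1.6.3 and mm10 are named, and strandedness is not given in the sources used here. Of the columns, 6 of IECs (Cdk19D173A alleles) could not be tied to a group and were not analysed here. Positions are from GENCODE vM21. Counts were fitted with edgeR 4.0.16 in R 4.3.3 (filterByExpr, TMM, robust quasi-likelihood F test, Benjamini-Hochberg over all genes), the 5 organoid lines together, the 8 time-course groups together, the others as pairs, and 12 libraries in each joint fit. SE is the log2 fold change over the root of F. CPM values used TMM-scaled totals. Log2 CPM for likeness used a prior of 2. Every member was tested in every comparison, and of the other pathway genes at most the 4 called with the largest change were named. Members and gene lists were chosen with earlier results of these data known. DESeq2 1.42.0, limma-voom 3.58.1, 2 other filters, upper quartile scaling, a replicate block (by column number, and chosen after seeing the data, where labels tie no sample) and leaving out each library were tried. The edgeR, DESeq2 and limma-voom fits were tested on simulated data for pairs of groups, and the joint fits were not.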

Additional observations from a re-analysis of the deposited data

Results flagged for a closer look

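In all, 10 differences between responses to 4-OHT passed the adjusted p and the fold limit in a test of the difference itself (edgeR's interaction contrast, 3 libraries a group). Day 10 against day 3 of the time course gave 6 of 9 members, against 26.3% of all genes: Notch1 (-0.81), Notch2 (-1.78), Dll1 (0.98), Dll4 (-1.00), Jag2 (-0.90) and Lfng (-0.82) on the log2 scale. Notch2 was higher with 4-OHT at day 3 in 3 of 3 libraries and lower at day 10 in 3 of 3, while Dll1 was called lower at day 3 and stood at 0.34 at day 10. Wnt3-CM against standard medium at day 10 gave 4 of 9, against 13.3% of all genes: Notch1 (0.73), Jag1 (-0.91), Nrarp (0.82) and Lfng (0.67). No group exceeded 3 libraries, so single libraries were not tested as outliers.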

How the results depend on the processing

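Of 144 member values, 43 were called, and none of these changed sign in an alternative; 36 passed both limits in every one run. DESeq2, limma-voom, no filter and a filter of at least 10 counts in every library kept all 43 calls. The count of called members moved by over 1.5 times in 4 of 16 comparisons and by any amount in 9, and 9 uncalled values were called in some alternative. With C57BL/6 as the control, CDK8iIEC-KO/Cdk19-/- organoids had 3 called members in place of 5. IECs had 0 in place of 1 with a replicate block (Dll4 -1.19, adjusted p = 0.094), and 0 to 1 on leaving out 1 library. EtOH day 10 against day 3 gave 0 to 1 and the Cdk19D173A minus Cdk19-/- response 0 to 2 on leaving out 1 library. The cause was not tested. Deviations of same-numbered samples correlated at medians of 0.018 in the lines and 0.036 in the time course, against -0.0093 and -0.014 for different numbers. They ranged from -0.18 to 0.22 and from -0.35 to 0.48. In IECs, with 3 such pairs, the median was -0.16 against 0.15 and the range -0.38 to 0.20. These values do not settle whether equal numbers were paired. Apart from Dll4 in IECs the block changed no member call. In the Wnt3-CM, Cdk19D173A and joint fits the labels do not tie columns to numbered samples. There a block on the number ending each column name, chosen after seeing the data, left the member counts at 6, 3, 4 (Wnt3-CM minus standard medium) and 0 (Cdk19D173A minus Cdk19-/-). Over all genes, IECs had 228 calls by edgeR, 859 by DESeq2, 1103 without a filter and 8 with the block. Cdk8fl/fl/Cdk19-/- had 794 and day 5 of the time course 2040, against 476 and 1303 with at least 10 counts.

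Uncalled values near 0 changed sign, 28 in some alternative. With upper quartile scaling Lfng was at 0.000803 in CDK8iIEC-KO, Hes1 at 0.028 in IECs, Dll1 at 0.0083 on day 5, Jag2 at -0.070 in EtOH day 10 against day 3 and Nrarp at -0.031 in the day 10 minus day 3 response. With at least 10 counts Hes1 was at 0.000481 in IECs, and Jag2 at -0.072 and Nrarp at -0.000957 in EtOH day 10 against day 3. There Notch1 was at 0.00887 without a filter and Jag2 at -0.00586 in a fit of only the groups compared. Against C57BL/6, Notch2 was at -0.00633 and Jag1 at 0.11 in CDK8iIEC-KO/Cdk19-/- organoids. On leaving out 1 library, the lowest and highest values of such members spanned 0. In CDK8iIEC-KO these were Notch1 (-0.091 to 0.086) and Lfng (-0.15 to 0.062). In Cdk8fl/fl/Cdk19-/- these were Notch1 (-0.14 to 0.080), Notch2 (-0.011 to 0.24), Dll4 (-0.11 to 0.0034) and Jag1 (-0.14 to 0.037). In CDK8iIEC-KO/Cdk19-/- against VillinCreERT2 these were Notch2 (-0.039 to 0.13) and Jag2 (-0.17 to 0.0066). In CDK8iIEC-KO/Cdk19-/- against Cdk8fl/fl/Cdk19-/- these were Nrarp (-0.13 to 0.14). In the 2 control lines these were Notch2 (-0.066 to 0.19) and Dll4 (-0.017 to 0.11). In IECs these were Notch1 (-0.45 to 0.019) and Hes1 (-0.16 to 0.073). At day 3 these were Notch1 (-0.060 to 0.11) and Nrarp (-0.036 to 0.093). At day 5 these were Dll1 (-0.11 to 0.039). At day 10 these were Nrarp (-0.043 to 0.060). In EtOH day 10 against day 3 these were Notch1 (-0.11 to 0.063), Jag1 (-0.17 to 0.018) and Jag2 (-0.041 to 0.085). In the day 10 minus day 3 response these were Nrarp (-0.067 to 0.062). In Wnt3-CM these were Notch1 (-0.16 to 0.018) and Dll1 (-0.24 to 0.070). In Wnt3-CM minus standard medium these were Jag2 (-0.016 to 0.083). In the Cdk19D173A line these were Dll1 (-0.25 to 0.18) and Jag1 (-0.068 to 0.18).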

Other observations

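Further genes of the Notch pathway gave these values in comparisons not described for them above, with calls by edgeR. In CDK8iIEC-KO organoids, with 7.23% of all genes called, 0 of 32 were called higher and 2 lower, Neurl1b (-0.94), a ubiquitin ligase of ligands, and Hes2 (-0.86). Cdk8fl/fl/Cdk19-/- against C57BL/6 (5.25% of all genes) had 1 higher, Aph1b (0.82), a part of gamma-secretase, and 1 lower, the receptor Notch3 (-1.21). CDK8iIEC-KO/Cdk19-/- against Cdk8fl/fl/Cdk19-/- (10.6%) had Aph1b (0.61) higher and Dtx3 (-1.05) lower. The control lines (26.4%) differed in 3 higher and 6 lower, led by Dtx3 (1.15), Neurl1a (-1.13) and Aph1b (-1.11). In the time course, day 5 (13.2%) had 0 higher and 3 lower of 36, Hes5 (-1.23), Hes7 (-1.04) and Numbl (-1.01), and day 7 (18.3%) had 3 higher and 4 lower, the latter Mfng (-1.79), Hes5 (-1.55), Numbl (-1.17) and Hes7 (-1.08). From day 3 to day 10 in EtOH (38.4%), 3 were higher and 7 lower, led by Dtx3 (-3.27). The responses at day 10 and day 3 differed in 13 of 36, against 26.3% of all genes, led by Mfng (-3.71) and Notch3 (-2.53). Wnt3-CM and standard medium differed in 4 of 35 (13.3% of all genes), led by Hes5 (1.97), and the Cdk19D173A and Cdk19-/- lines in 2 of 35 (11.1%), Dtx3l (-0.63) and Maml3 (-0.59).

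Atoh1 was at -0.10 ± 0.09 in CDK8iIEC-KO (adjusted p = 0.423), with 0 of 8 fate regulators called, and at -0.18 ± 0.09 in Cdk8fl/fl/Cdk19-/- (adjusted p = 0.186), with 2 called lower. It was called lower in CDK8iIEC-KO/Cdk19-/- against VillinCreERT2 (-0.80 ± 0.10), against Cdk8fl/fl/Cdk19-/- (-0.86 ± 0.10), at day 5 (-0.78 ± 0.07), at day 7 (-0.92 ± 0.08) and in Wnt3-CM (-0.82 ± 0.10). In IECs it was at 17.9 against 27.7 CPM (-0.63 ± 0.12, adjusted p = 0.0546), with 0 of 8 called, and in the Cdk19D173A line at -0.22 ± 0.11 (adjusted p = 0.188), with 4 others called lower. From day 3 to day 10 in EtOH it fell by 0.79 on the log2 scale (SE 0.07).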
